A study of Mus musculus with 2 samples.

Results

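Protein synthesis runs on a small set of soluble factors that ribosomes use again and again. The eIF4F complex (the cap-binding protein eIF4E, the scaffold eIF4G and the RNA helicase eIF4A) and the poly(A)-binding protein PABPC1 prepare the mRNA, eIF3 and the eIF2 complex bring the small ribosomal subunit and the initiator tRNA, and eIF1, eIF1A, eIF5 and eIF5B act at the start codon and when the large subunit joins. Elongation then needs eEF1A with its exchange factor eEF1B, eEF2 and eIF5A, and eRF1 (Etf1) with eRF3a (Gspt1) ends the chain. Their mRNAs are abundant in growing cells such as embryonic stem cells. Several of them begin with a terminal oligopyrimidine (TOP) tract, a run of C and T at the cap that puts their translation under control of the kinase mTOR.

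The genes described here were chosen by symbol as mouse translation initiation, elongation and termination factors. The symbols were Eif followed by a number, Eef1 and Eef2, Etf1, Gspt1 and Pabpc1, without the eIF2 kinases (Eif2ak). Among them are also 4 genes of proteins that bind eIF4E and 6 genes of enzymes that modify elongation factors. Eef1e1, a protein of the multi-tRNA-synthetase complex, is counted with the elongation factors. All these genes are called factors below. They held 201 protein-coding transcripts of 67 genes among the 49490 protein-coding transcripts of 21587 genes found in the deposited table, and 22 further annotated transcripts of the same genes had no row in it. The cells were wild-type, feeder-depleted DTCM23/49 XY mouse embryonic stem cells on gelatin with leukemia inhibitory factor, which received 200 µM 4-thiouridine (4sU), a uridine analogue that enters new RNA, over a pulse of 10 min. The 4sU RNA was pulled down through biotin (labeled RNA), and the RNA left in the supernatant was kept as unlabeled RNA. The labels describe this pool as preexisting RNA but title it as total RNA. Each pool was sequenced as 1 library of replicate 1, so no value below has a replicate error, no test was made, and counts past a fixed fold are descriptions of these libraries.

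Each transcript had an exon value and, for all but 2 of the 201 factor transcripts (the single-exon Eif3j2 and Eif3c-202), an intron value in each library. These values are relative abundances per length that sum to 10 times a TPM column in each library, so they compare genes within a library and give shares of a library, not amounts of RNA per cell. Read depth is unknown. The 8 stem cell markers examined were all present, from 72.9 (Zfp42, unlabeled) to 6580 (Tdgf1, unlabeled), whereas the fibroblast collagen and periostin genes Col1a1, Col1a2, Col3a1 and Postn stood at 0 to 1.78 and the fifth of that list, Thy1, at 6.03 and 14.45. Of 7 genes of differentiating cells, Pax6 was the highest, at 68.7 in labeled and 70.5 in unlabeled RNA, with the others at 0 to 5.88, and their part in the values below was not tested. In such bulk RNA, fewer cells with an mRNA and less of it per cell cannot be told apart.

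The factor mRNAs were abundant. Summed over the protein-coding transcripts of each gene, the 65 factors whose mean exon value exceeded 10 had a median of 333.8 in labeled RNA and 470.2 in unlabeled RNA, against 65.0 and 82.3 for all 10336 genes past the same minimum. All 67 together took 2.68% of the protein-coding exon signal of labeled RNA and 3.36% of that of unlabeled RNA. Eif5a, the factor that carries hypusine and helps ribosomes through difficult peptide bonds, had the highest gene value at 22189 in labeled and 36525 in unlabeled RNA, which was 27.4% and 27.2% of the factors' summed signal. Next came Eef1a1, which delivers aminoacyl-tRNA, at 11924 and 22952.5, although with the near-identical copies described further on it exceeded Eif5a in both libraries. The rank of Eif5a also rests on a sum of 13 transcripts. Its most highly expressed transcript had 2219 and 4166, below the 6205 and 9153 of that of Eef1a1. The first 5 genes held 58.5% of the labeled and 62.0% of the unlabeled factor signal, and after Eif5a and Eef1a1 they differed between the libraries: Eif4a2, Eef1b2 and Eif2s2 in labeled RNA, Pabpc1, Eif4g2 and Eif4g1 in unlabeled RNA. At the other end, the germ-cell cap-binding protein gene Eif4e1b (1.48 and 0.31) and Eif4e3 (1.96 and 5.86) stayed under the minimum and were not counted further.

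**Figure D1:**
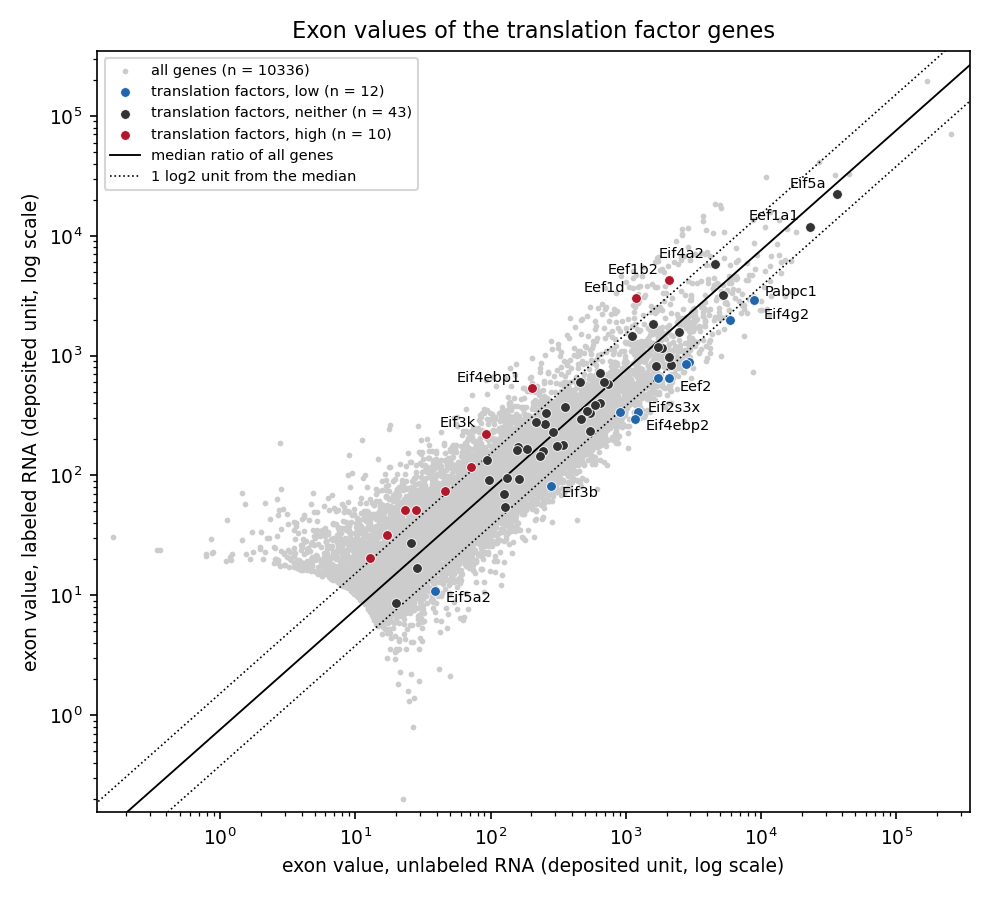
Exon value of each gene in labeled RNA (vertical) against unlabeled RNA (horizontal), both on log scales in the deposited unit, with all genes in grey and the 65 translation factor genes coloured by whether their ratio lay at least 1 log2 unit below (low, 12), at least 1 above (high, 10) or within 1 unit of the median ratio of all genes. The solid line is that median, the dotted lines lie 1 log2 unit from it, and the low factors sit mostly among the abundant mRNAs while 7 of the 10 high factors had values under 250 in both libraries.

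The labeled to unlabeled exon ratio is meant to order mRNAs from those with a large share of new molecules to those carried mostly by old ones. The ratio also takes in unlabeled RNA captured with the labeled pool, a limit the paper names, so it is not a measured share of new molecules. Over all genes its median was -0.40 on the log2 scale, which corresponds to a 1.32-fold higher share in unlabeled RNA, and the factors' median was -0.61 (quartiles -1.10 and 0.21, against -0.99 and 0.30 for all genes). Genes at least 1 log2 unit below the median of all genes (at or under -1.40) are called low here and genes at least 1 unit above it (at or over 0.60) high. Low were 12 of the 65 factors (18.5%), against 11.3% of all genes, and high were 10 (15.4%), against 18.0% of all genes. Of these 10 high genes, 5 encode enzymes that modify elongation factors and 2 encode proteins that bind eIF4E. With the most highly expressed transcript of each gene, 8 of 64 factors (12.5%) were low and 13 (20.3%) high, against 11.15% and 18.3% of all genes, and the medians were -0.55 and -0.48. The factors spread on both sides, with 37 below and 28 above the median of all genes.

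The group called eIF4F and Pabpc1 also held relatives and cofactors such as Eif4a3, Eif4e2, Eif4b and Eif4h. Its shares are therefore not those of eIF4F subunits alone. In this group 4 of 11 genes were low (36.4%, against 11.3% of all genes) and 0 were high (against 18.0%). The low ones were Pabpc1 (2911 in labeled, 8892 in unlabeled RNA, log2 -1.61), Eif4g2, an eIF4G relative that lacks the eIF4E-binding part (2886 and 8806, -1.61), the main scaffold gene Eif4g1 (1975 and 5911, -1.58) and Eif4b, a cofactor of eIF4A (340.0 and 907, -1.42). With the most highly expressed transcript of each gene in place of the sum, Eif4g1 and Eif4b were no longer low and Eif4a2 and Eif4e2 became high, which left 2 of the 11 low and 2 high. Eif4b was also lost when only transcripts of the GENCODE basic set were summed, a step chosen after seeing the data. Eif4e, the cap-binding protein itself, lay just above the limit at 827 and 2170.3 (-1.39). Paralogs of the helicase stood apart by 1 log2 unit in this measure. Eif4a1 had 1571 in labeled and 2469 in unlabeled RNA (-0.65), whereas Eif4a2 had 5790.0 and 4544 (0.35).

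The proteins that bind eIF4E spanned the whole range of the factors. Eif4ebp2, a translational repressor that mTOR inactivates, had the lowest ratio of all tested factors, with 293 in labeled and 1178 in unlabeled RNA, 4.02-fold higher in the latter (log2 -2.01). Eif4ebp1, which acts in the same way, had the highest, with 536.5 and 201 (1.42). Eif4enif1, the eIF4E transporter of the nucleus and P-bodies, lay between at 971 and 2085 (-1.10). In unlabeled RNA the level of Eif4ebp2 was thus above that of Eif4ebp1, and in labeled RNA below it.

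The eIF2 complex and its partners were mostly near the median. Of 9 genes of eIF2 and eIF2B, 1 was low (11.1%, against 11.3% of all genes) and 0 were high (against 18.0%). The low one was Eif2s3x, the X-linked gene of the gamma subunit that binds GTP and initiator tRNA (339.5 and 1224, -1.85), whereas its Y-linked homolog Eif2s3y had 178 and 342 (-0.94). The alpha subunit gene Eif2s1, whose phosphorylation slows initiation under stress, had 577 and 743 (-0.37), and the beta subunit gene Eif2s2 had 3183 and 5217 (-0.71). Eif2b4, a subunit of the exchange factor eIF2B, was the highest of this group at 136 and 94.0 (0.53). It became high with the most highly expressed transcript, with 0.142 times the unlabeled value subtracted from the labeled one as leaked RNA, and with GENCODE basic transcripts. Eif2a, an alternative initiator tRNA carrier unrelated to the eIF2 complex, was low at 890 and 2922 (-1.72), but not with the most highly expressed transcript or with GENCODE basic transcripts.

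eIF3 subunits, which scaffold the small ribosomal subunit, had a median of -0.57, and 12 of 14 were neither low nor high. Of the 14, 1 was low (7.14%, against 11.3% of all genes) and 1 was high (7.14%, against 18.0%). The exceptions were Eif3b, part of the core (81.4 in labeled, 279 in unlabeled RNA, -1.77), and the small peripheral subunit gene Eif3k (223 and 92.5, 1.27). The large subunit gene Eif3a had 1182 and 1724 (-0.54), and Eif3m, the most abundant by the mean of both libraries, 1838 and 1585 (0.21). Subunits of 1 complex therefore did not share a level, since unlabeled values ran from 92.5 to 1724. Among start-site and joining factors 1 of 8 was low (12.5%, against 11.3% of all genes), Eif1a (655 and 1744, -1.41), and 0 were high (against 18.0%). Eif1a lay close to the limit and was not low with the most highly expressed transcript or with GENCODE basic transcripts. Its X-linked relative Eif1ax had 54.5 and 127 (-1.22). Eif1, which keeps start codon choice strict, had 1448 and 1106 (0.39).

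Elongation factors also lay on both sides of the median. Of 9 genes, 2 were low (22.2%, against 11.3% of all genes) and 2 were high (22.2%, against 18.0%). Eef2, the translocase, was low with 648 in labeled and 2099 in unlabeled RNA (-1.70), and so was Eif5a2, the scarce paralog of Eif5a, with 10.8 and 38.8 (-1.85). High were the eEF1B exchange factor subunit genes Eef1d (3036 and 1179.8, 1.36) and Eef1b2 (4234 and 2073, 1.03). The third subunit gene, Eef1g, had 1147 and 1853 (-0.69), so the genes of this complex lay on opposite sides of the median of all genes. Eif5a (-0.72), Eef1a1 (-0.94) and its paralog Eef1a2 (8.65 and 19.96, -1.21) were neither low nor high. Gspt1 was low (843 and 2771, -1.72) and Etf1 was not (235.5 and 541, -1.20).

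Enzymes that modify elongation factors had the highest group median, 0.79, and 5 of 6 were high, against 18.0% of all genes: the lysine methyltransferase genes Eef1akmt1, Eef1akmt2, Eef1akmt3, Eef1akmt4 and Eef2kmt. They were also the scarcest group by median, with 16.8 to 118 in labeled and 17.1 to 71.7 in unlabeled RNA, and Eef1akmt2 was the most abundant (118 and 71.7, 0.72). Eef2k, the kinase that inactivates eEF2, was the exception with 16.8 and 28.6 (-0.77). With a minimum of 1 in place of 10, which moved the median of all genes to -0.26, Eef1akmt1 and Eef1akmt2 were no longer high, and with GENCODE basic transcripts Eef2kmt was not.

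**Figure D2:**
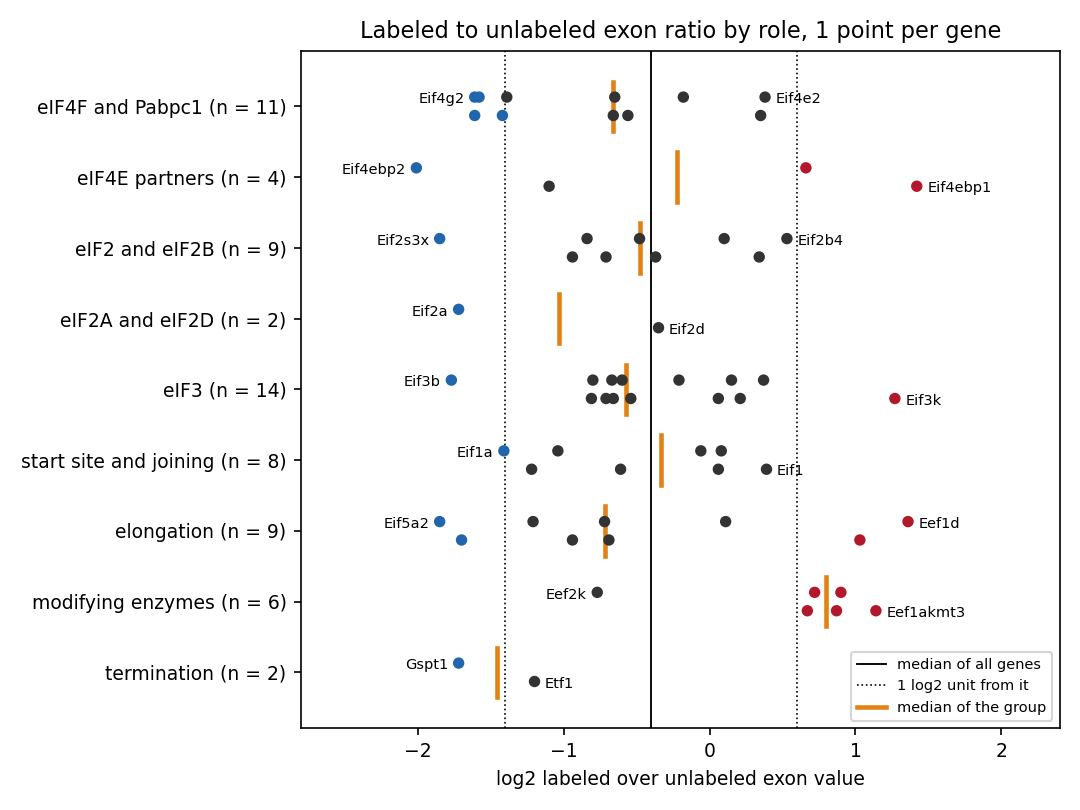
The log2 labeled over unlabeled exon value (horizontal) of the 65 translation factor genes, 1 point per gene, in 9 groups by role, with blue for low, red for high and dark grey for neither. Orange bars are group medians, the solid line is the median of all genes (-0.40) and dotted lines lie 1 log2 unit from it. The modifying enzymes sit to the right with a median of 0.79, and the eIF4E partners reach from -2.01 to 1.42.

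Other genes of translational control, taken as a separate list of 31 measured genes past the minimum, had a median of -0.53, with 5 low (16.1%, against 11.3% of all genes) and 4 high (12.9%, against 18.0%). Low were Abce1, which splits ribosomes after termination (214 and 894, -2.06), the Gspt1 relative Gspt2 (37.5 and 154, -2.04), the helicase genes Ddx3x (439.5 and 1454.5, -1.73) and Dhx29 (45.7 and 123.5, -1.43), and Larp1, which binds TOP mRNAs (482 and 1423, -1.56). High were Akt1s1, a brake on mTOR complex 1 (34.9 and 5.69, 2.62), Dhps, the first enzyme of hypusine synthesis on eIF5A (22.4 and 9.96, 1.17), Denr (228 and 102, 1.16) and Mknk1 (29.7 and 17.9, 0.73). The 4 eIF2 kinase genes left out of the factor set were not called, and Eif2ak3 fell under the minimum.

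Mature mRNA length went with the ratio among the factors and among all genes. Spearman's coefficient between the log2 ratio and the length of the most highly expressed transcript was -0.55 across the 65 factors and -0.36 across the 10336 genes, as a description over genes, which share the 2 libraries. Among genes with 1 protein-coding transcript in the table, where the length does not depend on the choice of transcript, it was -0.50 (28 factors) and -0.49 (3546 genes). Factors with a transcript under 1000 bases had a median of 0.59, with 6 of 12 high and 0 low, while 36.2% of the 2054 genes of that length were high (median 0.13). Of 24 factors between 2000 and 4000 bases, 10 were low (median -1.0), against 13.1% of 3644 genes of that length (median -0.55). In the other length classes the factors lay nearer to all genes. Medians were 0.06 (21 factors) against -0.02 from 1000 to 2000 bases, and -0.72 (8 factors) against -0.83 from 4000 bases on. The 10 high factors had a median length of 933.5 bases and the 12 low ones 2921.5 bases. For some genes the leading transcript was a short isoform that held a minority of the signal, such as Eif4e-205 (729 bases, 37.6% of the gene's mean exon value) and Eif2b4-204 (768 bases, 24.7%). The part of transcript length, or of the number of uridines that rises with it, in the differences between the role groups was not tested.

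**Figure D3:**
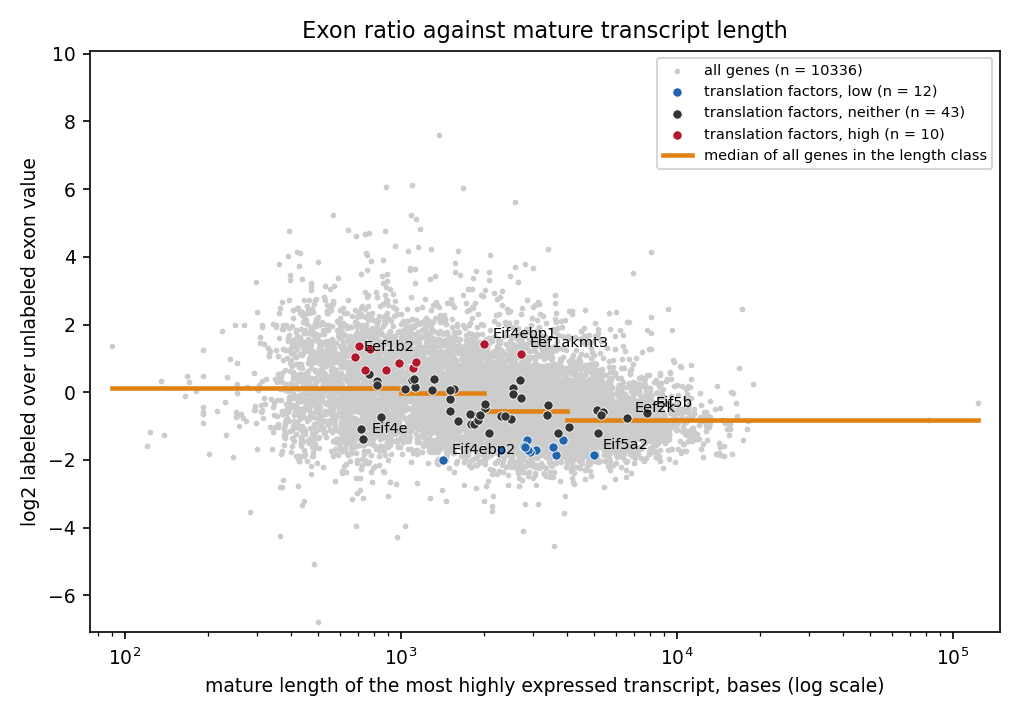
The log2 labeled over unlabeled exon value (vertical) against the mature length of the most highly expressed transcript of each gene (horizontal, log scale), with all 10336 genes in grey and the 65 translation factors coloured as low, neither or high. Orange bars give the median of all genes in each length class, which falls from 0.13 under 1000 bases to -0.83 from 4000 bases on, and the low factors gather between 2000 and 4000 bases.

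Several factor genes have processed pseudogenes, copies of the spliced mRNA elsewhere in the genome, and their reads are hard to assign to one locus. A search of the annotated transcripts found 48 genes elsewhere, most of them processed pseudogenes, with at least 95% identity over at least 300 bases to the leading transcript of 20 factors, and 36 of them had values in the table. All these matching genes are called copies here, also the protein-coding ones. Among them were Emd for Eif1 (244 in labeled, 271 in unlabeled RNA), and the factors Eif3j1 and Eif3j2 for each other. The copies' summed exon value exceeded that of the factor gene itself in unlabeled RNA for 8 of 18 factors. The sequences below are coding stretches of 60 bases, given in the direction of the mRNA (GRCm38), that the gene and its most abundant copy share letter for letter, so that a read inside them cannot be placed:
Pabpc1 exon 8 (chr15:36599413-36599472, minus strand) and Gm16580 (chr17:26269462-26269521): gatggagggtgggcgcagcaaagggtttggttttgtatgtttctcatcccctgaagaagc
Eef1g exon 2 (chr19:8968216-8968275, plus strand) and Gm5525 (chr1:29485844-29485903): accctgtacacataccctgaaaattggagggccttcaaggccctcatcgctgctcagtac
Eif2s3x exon 2 (chrX:94211723-94211782, minus strand) and Gm2223 (chrX:33505661-33505720): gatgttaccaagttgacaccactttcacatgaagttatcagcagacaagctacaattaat
Eif4a1 exon 6 (chr11:69668674-69668733, minus strand) and Eif4a-ps4 (chr1:60704466-60704525): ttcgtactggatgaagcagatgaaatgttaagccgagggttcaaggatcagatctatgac

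Elsewhere a gene and its copy can be told apart. In 60 bases of Pabpc1 exon 11 (chr15:36598068-36598127) and the matching stretch of Gm16580 (chr17:26269932-26269991), the 4 bases that differ are in capitals:
Pabpc1: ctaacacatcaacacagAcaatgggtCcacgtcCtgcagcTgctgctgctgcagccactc
Gm16580: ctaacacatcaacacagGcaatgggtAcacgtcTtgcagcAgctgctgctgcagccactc

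Gm16580, 97.2% identical to Pabpc1 over 1052 aligned bases, was listed at 2612 in labeled and 8213 in unlabeled RNA. That was 92.4% of the Pabpc1 gene value in unlabeled RNA. Its log2 ratio of -1.65 was near the -1.61 of the gene's summed transcripts. The aligned transcript Pabpc1-201 alone had -2.02, and the other one, Pabpc1-206, had -1.04. The 2 copies of Eef1g reached 3172 and 6177 together, 333.3% of the gene's own unlabeled value. Gm2223, identical to Eif2s3x over all 1350 of its bases, stood at 341 and 1578 (log2 -2.21), and the 2 copies of Eif4a1 at 1281 and 2529 (-0.98). The 5 listed copies of Eef1a1 summed to 10800.0 in labeled and 19078 in unlabeled RNA. With them Eef1a1 reached 22724 and 42031, above the 22398 and 36908 of Eif5a with its own copy. The single-exon Eif3j2 shared 2379 bases at 99.4% identity with Eif3j1. In 17 of these 18 factors the log2 ratio of the summed copies lay within 0.5 of the gene's. Single copies could lie further away. Against Eif3e at -0.21, Eif3s6-ps1 had -0.02 and Eif3s6-ps2 had -1.64. How the quantification divided shared reads between gene and copies was not tested. Adding the copies to their genes, a step chosen after seeing the data, left the same 12 low and 10 high factors and made Eif4e low as well.

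**Figure D4:**
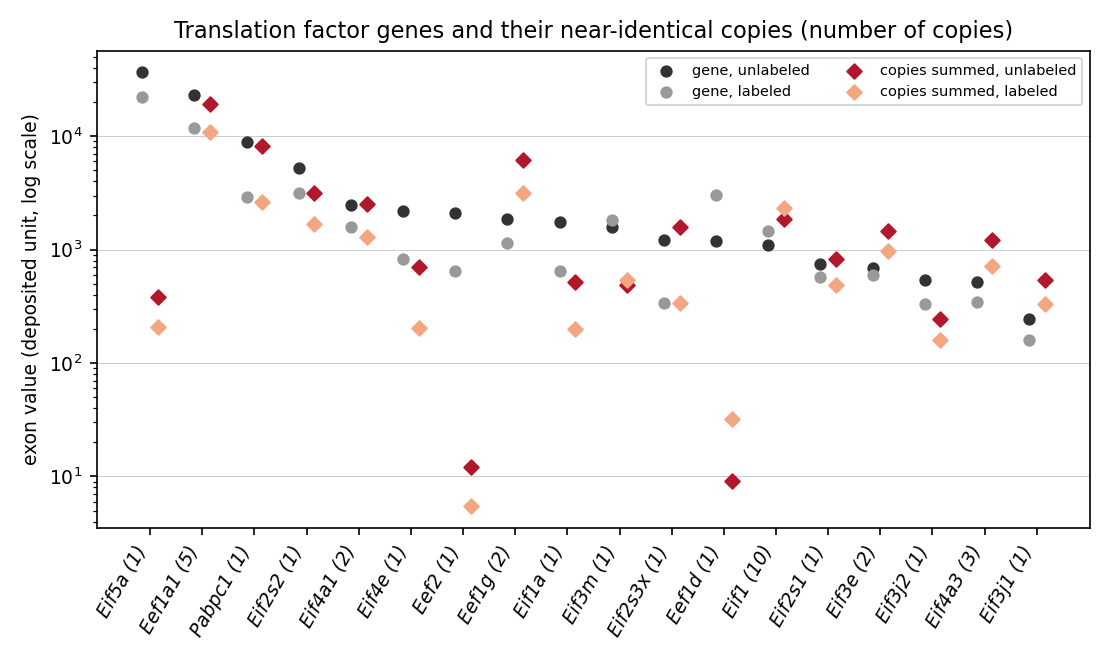
Exon values (vertical, log scale, deposited unit) of the 18 factor genes that had a near-identical copy in the table (circles) and of their copies summed (diamonds), in unlabeled (dark) and labeled (pale) RNA, with the number of copies beside each name. The copies exceed the gene in unlabeled RNA for 8 factors, among them Eef1g, and lie far below it for Eif5a, Eef2 and Eef1d.

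The TOP tract was looked for at the annotated mRNA starts, since 10 of the factors (Eef1a1, Eef1b2, Eef1d, Eef1g, Eef2, Eif3e, Eif3f, Eif3h, Eif4b and Pabpc1) are known for it. As a group they were not on 1 side of the exon ratio. Of the 10, 3 were low (against 11.3% of all genes) and 2 were high (against 18.0%). Their median was -0.75, against -0.60 for the other 55 factors. A start at C followed by at least 4 C or T was present at a RefSeq start of 2 of the 49 factors that had one in the table, Eif2s3x and Eif3f (4.08%), and of 3.04% of 8105 tested genes. Of the 10 known TOP genes, only Eef1a1, Eef1b2, Eef2, Eif3f and Eif4b had a RefSeq start to read. Eef1d, Eef1g, Eif3e, Eif3h and Pabpc1 had none and were not examined. Only the annotated base was read, so starts that lie a few bases away were missed, and within 5 bases on either side 11 of the 49 factors had such a tract, against 24.1% of the tested genes. The windows below run from 10 bases before to 20 bases from the annotated first base (RefSeq, GRCm38.p6) and show both matches, with the tract in capitals, and 2 well-known TOP mRNAs, whose annotated first base opened no such tract:
Eif2s3x (chrX:94212632-94212661, minus strand): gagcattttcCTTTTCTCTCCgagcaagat
Eif3f (chr7:108934405-108934434, plus strand): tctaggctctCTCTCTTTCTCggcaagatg
Eef1a1 (chr9:78481705-78481734, minus strand): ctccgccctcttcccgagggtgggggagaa
Eef2 (chr10:81176621-81176650, plus strand): aaggccgggcgttgacgtcagcggtctctt

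Intron values were low relative to exon values for the factors in both pools. The intron values themselves were not compared with those of other genes. Over the 183 factor transcripts (64 genes) with exon and intron values above 0 and a mean exon value above 1, the labeled intron to exon ratio had a median of 0.213, with quartiles of 0.0915 and 0.373, and the unlabeled one had a median of 0.0278, with quartiles of 0.0121 and 0.0819. The medians over all 31386 such transcripts were 0.570 and 0.111. Eef1a1 had the lowest ratios among the factors' leading transcripts, 0.00776 in labeled and 0.00113 in unlabeled RNA, followed in unlabeled RNA by Eef2 (0.0319 and 0.00436), Eif2a (0.0601 and 0.00461) and Eif4a1 (0.0373 and 0.00472). The highest labeled ratios of leading transcripts were those of Eif4ebp3 (1.32) and Eef2k (1.17). Eef1e1, a small protein of the multi-tRNA-synthetase complex, had 0.95 in labeled RNA, where its intron value of 164 nearly equalled its exon value of 173.

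Introns of 8 of these genes hold small nucleolar RNAs, 16 in all: Eif4a2 (5), Eif4a1 (3), Eef1b2 and Eif3a (2 each), and Eef2, Eif4g1, Eif4g2 and Eif5 (1 each). Summed per gene, the hosts' median intron to exon ratio was 0.0944 in labeled and 0.0128 in unlabeled RNA, against 0.193 and 0.0291 for the 56 other factors with an intron row. Eif4a2 had the highest ratio of the hosts in both pools, 0.422 in labeled and 0.193 in unlabeled RNA. It was the only host above the other factors' median in unlabeled RNA. In labeled RNA Eif5 (0.2555) and Eif4g2 (0.1945) were above that median as well. Reads from the small RNAs themselves cannot be told apart from intron reads in these values.

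The rate model of the study expects a labeled ratio below 1 and above the unlabeled one. Of the 183 factor transcripts 22 (12.02%) broke this, against 33.3% of all transcripts. In 16 the labeled ratio was 1 or more. They were mostly scarce isoforms, among them 6 of the 7 transcripts of Eef2k, and the only one from a gene with 1 protein-coding transcript was Eif4ebp3 (labeled ratio 1.32). The other 6, all from Eef1d, had a labeled ratio no higher than the unlabeled one, such as 0.0220 and 0.0229 in the leading transcript Eef1d-217. Below the line above which the model has exactly 1 solution (the labeled ratio equal to 1 divided by 2 minus the unlabeled ratio) lay 147 factor transcripts (80.3%), against 44.2% of all.

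**Figure D5:**
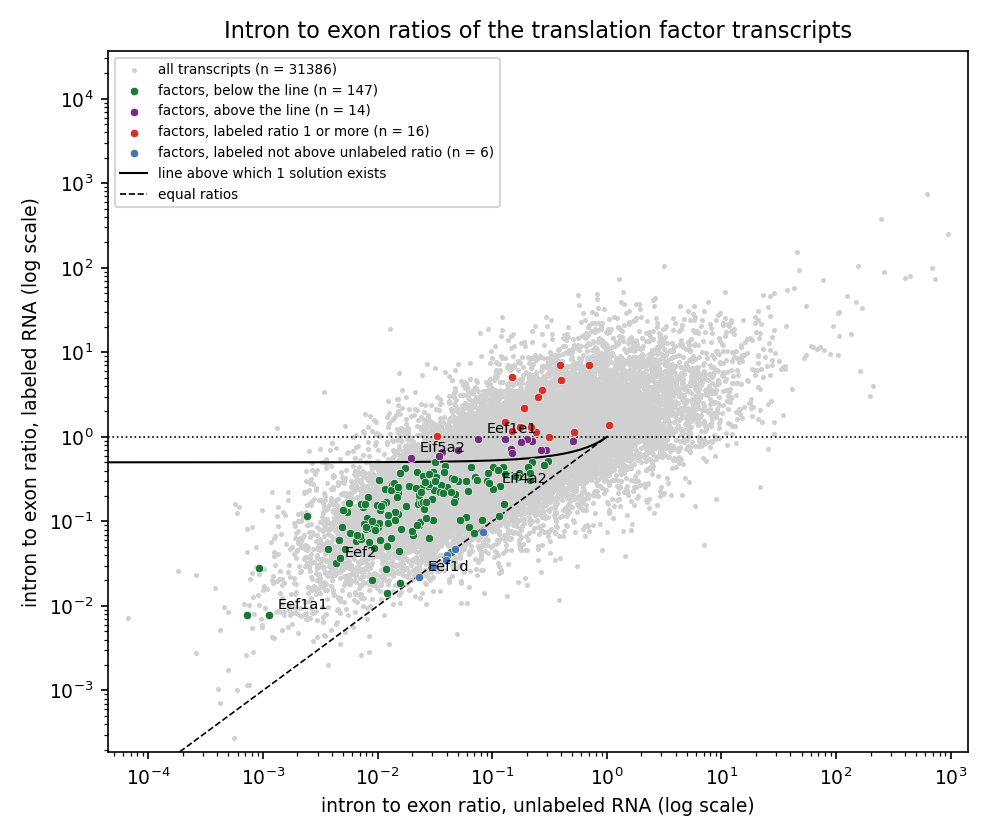
Intron to exon ratio in labeled RNA (vertical) against unlabeled RNA (horizontal), both on log scales, with all 31386 transcripts in grey and the 183 translation factor transcripts coloured by region. The solid curve is the line above which the model has 1 solution, the dashed line marks equal ratios and the dotted line a labeled ratio of 1, and 147 factor transcripts lie below the curve, with the leading Eef1a1 transcript at 0.00776 (labeled) and 0.00113 (unlabeled).

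This position bears on how an mRNA half-life can be computed. Among the 161 compatible factor transcripts (63 genes), 142 (88.2%) had no exact solution, 15 had 1 and 4 had 2, while 57.2% of the 20920 compatible transcripts overall had none. For transcripts without a solution the rates that come closest to both ratios along the model's own relation were used, and the remaining distance, in natural log units, had a median of 1.01 for the factors and 0.744 for all. On that basis the median half-life was 25.4 min for the factors (quartiles 14.3 and 52.7) and 19.0 min for all transcripts. Of the 45 leading transcripts with a mean exon value of at least 100, 44 had no exact solution, and their half-lives ran from 3.88 to 377 min. When both rates were left free in the fit, the same 44 ran from 2.45 to 9.66 min, and when the unlabeled library was taken for total RNA, from 2.33 to 143 min.

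Named factors show the scale of this dependence. Eef1a1 had 377 min, 9.66 min with both rates free and 44.2 min under the total-RNA reading. Pabpc1 had 53.8, 6.17 and 69.3 min in the same order, and Eef1b2, whose exon signal leaned to labeled RNA, 258, 5.23 and 3.72 min. Among the shortest by the first reading were Eif3f (3.88 min), Eif3b (6.82 min) and Eif4b (8.44 min), but with total RNA they had 92.3, 97.7 and 72.0 min, and with leaked RNA subtracted 26.3, 53.3 and 29.4 min. The longest were Eef1e1 (731 min), Eef1a1 and Eif3i (322 min). Eef1e1 was the 1 leading transcript of this abundance with an exact solution, and it had 812 min with total RNA and no value with leaked RNA subtracted. The order of the factors by half-life thus differed between these 3 readings of the same ratios, as with Eef1a1 and Pabpc1.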

How the data were processed

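RNA of both pools was sequenced by the authors, who removed reads mapping to ribosomal RNA, aligned the rest to exonic and intronic sequences (Ensembl, GRCm38) with STAR and quantified them with RSEM. The deposited score per transcript is called TPM by the authors, and each deposited column sums to 10 times a TPM column. Per the submitters' notes, STAR was version 2.5.0. No read counts were used, so precision is unknown. Symbols, biotypes and lengths came from GENCODE M21 (GRCm38), which held 90.9% of the exon rows. Exon values were summed per gene over protein-coding transcripts, with a minimum mean of 10 (1 for ratios). Roots of the rate equation were sought on 4000 grid points, after a test on simulated rates. Copies were found with BLAST 2.17.0. The analysis ran in Python 3.11.15 with scipy 1.17.1, numpy 2.4.6, statsmodels 0.14.6, pandas 2.3.3 and matplotlib 3.10.9. Genes were named by rule: the 6 lowest and 6 highest exon ratios at a mean exon value of at least 100, the most abundant of each role, the 3 longest and shortest half-lives, and genes picked for their roles. Other genes, such as paralogs, copies, called members and list genes, were named after their values were seen. Members, roles and lists were chosen with earlier results of these data known. Alternatives were the leading transcript, other minimums, pseudocounts of 1 and 0.1, subtraction of leaked unlabeled RNA, and other readings of the rates. The leaked share of 0.142 was set from percentile 1 of the exon ratios of these libraries and was not measured. The other replicates were not analysed here.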

Additional observations from a re-analysis of the deposited data

How the results depend on the processing

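Counts of low and high factors stayed within 1.5 times of 12 and 10 under all 7 other treatments of the exon values, with 8 to 16 low and 7 to 13 high. The shares of all genes moved as well, from 10.5% to 18.5% low and from 17.4% to 22.6% high. With leaked RNA subtracted, 24.6% of factors and 18.5% of all genes were low. With a minimum of 1, 10.6% of factors and 21.9% of all genes were high. The low genes of the leading-transcript treatment (8) were all among the 12. There Eif1a, Eif2a, Eif4b and Eif4g1 were no longer low. The factors' median moved to -0.96 when 0.142 times the unlabeled value was subtracted as leaked RNA, where the median of all genes moved to -0.70, and the labeled intron to exon ratio then moved to 0.296. With 1 transcript per gene the median ratios were 0.154 in labeled and 0.0215 in unlabeled RNA, 4.69% were incompatible (28.9% of all) and the median half-life was 34.0 min. A minimum of 10 gave 5.42% incompatible (17.9% of all). The median half-life was 4.78 min with both rates free and 49.7 min with total RNA. These fits moved the half-life of 29 and 27 of 33 named genes by over 1.5 times, and subtracting leaked RNA moved 16 of 31, with no value left for Eef1e1 and Eif5a2. Restricting genes to the GENCODE basic transcripts, added after seeing the data, gave 9 low (13.85%, against 10.5% of all genes) and 10 high (15.4%, against 17.7%). No paired analysis was possible because each pool has 1 library. Depth is unknown, so scarce genes such as Eif5a2 and Eef2k cannot be given a counting error.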
